A study of Mus musculus with 6 samples.

Results

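The genes described here are 5 regulators of cell death, Bcl2l1, Mcl1, Bcl2l11, Pmaip1 and Cflar. They were named for this description with earlier results of these data known, as survival genes of the BCL2 family and of death receptor signalling, and all 5 were present among the 12780 genes that could be compared. They were measured by 7 probe sets of the 17551 in the table, 1 for each gene except Cflar, which had 3. The samples were type 1 conventional dendritic cells (cDC1) of the migratory kind, the dendritic cells that carry antigen from skin to lymph node and present it to CD8 T cells. They were sorted from skin draining lymph nodes of C57BL/6 mice of WT genotype as B220-, CD326-, XCR1+, Sirpa- and CD40+ cells with high MHC II and intermediate CD11c. There were 3 unstimulated samples and 3 stimulated with anti-CD40, an antibody that engages the receptor through which CD4 T cells act on dendritic cells, and each was hybridised to 1 Affymetrix array. The sources used here give neither the age of the mice nor the dose, duration and site of stimulation. Separate mice are not named for the biological replicates, so a p-value here reflects the spread of these 6 samples alone, part of which may be technical. The number of arrays limits the precision. In sorted bulk cells, a change in RNA per cell and a change in the mix of cells cannot be told apart.

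Whether a cell survives is set in large part by the balance within the BCL2 family at the mitochondrial outer membrane. Anti-apoptotic members such as BCL-XL and MCL-1 hold the effectors BAX and BAK in check. BH3-only proteins are released or made under stress and neutralise the anti-apoptotic members. BIM binds all of them, while NOXA binds chiefly MCL-1. A separate route starts at death receptors such as FAS, which recruit FADD and caspase-8, and c-FLIP blocks caspase-8 there. CD40 signalling through NF-kB is known to induce Bcl2l1 in B cells and dendritic cells.

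The spread of values within an array followed the replicate number rather than the group. Over the genes tested, the interquartile range in log2 units ran from 1.74 to 2.31, with the arrays numbered 1 of both groups widest and those numbered 2 narrowest. Of the cDC1 markers, 7 of 8 were measured, and their mean log2 intensities in unstimulated cells varied widely. Irf8 and Batf3, transcription factors that cDC1 need, were the brightest at 11.002 and 9.35. Cadm1 was at 7.43, Clec9a at 6.67, Wdfy4 at only 4.91 and Itgae at only 4.76. Xcr1, on which the cells were sorted, was at only 4.44 in unstimulated cells and at 4.67 with stimulation. Differences of the cDC1 markers were positive for 5 and negative for 2, and groups did not overlap for 1, Cadm1 at 0.36. Of the migratory dendritic cell markers, 6 of 7 were measured, with unstimulated means from 8.27 (Cd200) to 12.51 (Ccr7). All 6 had a positive difference. Groups did not overlap for 2, Cd200 at 1.05 and Socs2 at 0.48, where all genes had 7.14%. Among markers of other cells, 3 of 6 B cell and 5 of 7 T cell genes were measured. All 5 T cell markers had a positive difference, with a median of 0.43. The log2 of their summed intensity was 7.10 to 7.83 without and 7.31 to 8.22 with stimulation, so that the groups overlapped. Of the B cell markers, 1 had a positive and 2 a negative difference, with a median of -0.17. The brightest markers of other cells were the plasmacytoid dendritic cell genes Bst2 (means 8.41 without and 8.34 with stimulation) and Tcf4 (6.83 and 6.91). Of the 20 tested markers of other cell types, 3 had stimulated values above all unstimulated ones and 0 below, where all genes had 3.68% above and 3.46% below. These were Epcam, which encodes the excluded marker CD326, at 0.57 (means 4.74 and 5.31), the T cell gene Cd3e at 0.20 (5.44 and 5.63) and Sirpa, used to exclude other dendritic cells, at 0.15 (4.67 and 4.83), and 0 of them were called. The part of these differences in the results was not tested.

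The starts of Bcl2l1 are shown because it was the member with the largest difference, and 1 start of Bcl2l11 because it holds the other motif match among the members. RefSeq (build GRCm38.p6) gave 7 windows of 250 bases before an annotated start for 4 of the 5 members. All 3 windows of Bcl2l1 lie inside its annotated span on the minus strand. They are chr2:152828490-152828739 (window 1), chr2:152830718-152830967 (window 2) and chr2:152831729-152831978 (window 3). Of the 2 windows of Bcl2l11, only window 1 is shown, chr2:128125788-128126037 on the plus strand, and the other held no match. Each is printed 5′ to 3′ along its gene, with motif matches in capitals.
Bcl2l1 window 1: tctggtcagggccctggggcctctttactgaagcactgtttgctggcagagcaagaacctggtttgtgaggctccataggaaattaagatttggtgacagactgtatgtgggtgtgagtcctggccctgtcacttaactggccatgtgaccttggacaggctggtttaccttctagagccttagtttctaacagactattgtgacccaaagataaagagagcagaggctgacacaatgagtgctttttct
Bcl2l1 window 2: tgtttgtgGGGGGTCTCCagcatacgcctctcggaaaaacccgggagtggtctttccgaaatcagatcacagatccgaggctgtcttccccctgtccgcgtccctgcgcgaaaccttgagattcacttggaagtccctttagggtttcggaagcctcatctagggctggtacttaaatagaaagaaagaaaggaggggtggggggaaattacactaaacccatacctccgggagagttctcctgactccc
Bcl2l1 window 3: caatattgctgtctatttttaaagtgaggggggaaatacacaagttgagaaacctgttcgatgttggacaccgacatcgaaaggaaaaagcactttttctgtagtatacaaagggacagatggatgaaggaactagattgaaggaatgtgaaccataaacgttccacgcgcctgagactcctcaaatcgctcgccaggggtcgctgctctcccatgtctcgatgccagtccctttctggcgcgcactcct
Bcl2l11 window 1: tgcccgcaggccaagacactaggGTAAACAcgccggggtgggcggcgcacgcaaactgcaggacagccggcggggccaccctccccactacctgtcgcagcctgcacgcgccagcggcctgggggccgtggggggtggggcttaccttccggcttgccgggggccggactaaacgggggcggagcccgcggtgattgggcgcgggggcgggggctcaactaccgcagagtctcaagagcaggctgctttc

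On both strands, 3 motifs were searched. These were the NF-kB consensus, the AP-1 site TGANTCA and the FOXO core GTAAACA. Of the 7 windows, 2 held a match, and no matches overlapped. Window 2 of Bcl2l1 held an NF-kB consensus match, GGGGGTCTCC, from 242 to 233 bases before the start, a motif found in 7.25% of the 32851 windows of that length in the table. The Bcl2l11 window held the FOXO core from 227 to 221 bases before its start, and 3.17% of all windows hold it. The AP-1 site was in 6.75% of all windows and in 0 of the 7. A match is a stretch of letters and was not tested for binding.

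Bcl2l1 encodes the survival protein BCL-XL. Its log2 intensity (probe set 10488655) was 6.95, 6.64 and 6.88 in unstimulated samples 1, 2 and 3. It was 9.07, 8.22 and 8.57 in stimulated samples 1, 2 and 3. The groups lay well apart: the closest stimulated and unstimulated arrays differed by 1.27 and the farthest by 2.42. On the linear scale the deposited intensities were 100.04 to 124 without and 299 to 537 with stimulation. The means were 6.82 ± 0.16 and 8.62 ± 0.43 (SD, n = 3 each), a difference of 1.80 ± 0.24 (SE) or 3.47-fold (95% interval 2.34 to 5.16). Over all 12780 genes its limma adjusted p was 0.203, so it did not pass the threshold of an adjusted p under 0.05. Its unadjusted limma p of 0.000127 was the 8th smallest, and 10 genes, 0.0782% of those tested and Bcl2l1 among them, had a difference at least as large in that direction. The call changed with some settings of the fit and not with others. Bcl2l1 did not pass in 12 of 16 alternative fits, among them centring on array medians (limma adjusted p = 0.0684) and every fit that left 1 array out. It passed after quantile normalisation once more (limma adjusted p = 0.0294, difference 1.72). With array weights, which rest largely on the arrays numbered 3, it also passed (0.00893, 1.74). So it did with the array spread as a covariate (0.00911, 1.70), an alternative added after the data were seen. The remaining alternative, a replicate block, is given in the last section. The single probe set does not separate BCL-XL from BCL-XS, the short splice form that promotes death.

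**Figure D1:**
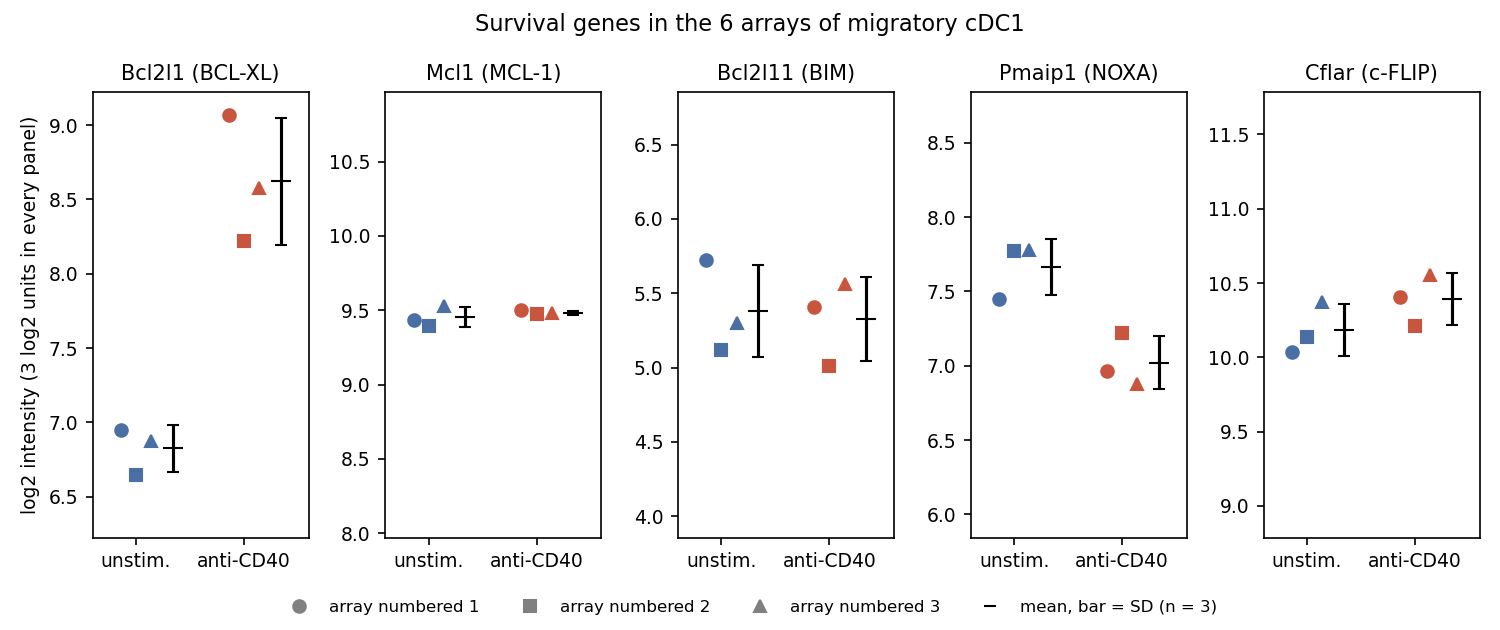
Log2 intensity (vertical axis, 3 log2 units in every panel) of the 5 genes in unstimulated and anti-CD40 stimulated cDC1; each point is 1 array, its shape the replicate number, and the black mark the mean with SD (n = 3). For Bcl2l1 all stimulated arrays lie above all unstimulated ones, for Pmaip1 all lie below, and for Mcl1, Bcl2l11 and Cflar the groups overlap.

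For 2 of the 5 genes the groups did not overlap, Bcl2l1 and Pmaip1, where 7.14% of all genes tested had groups that did not overlap (3.68% with stimulated values above and 3.46% below). As the 5 were not chosen blind to the data, nothing is read from that share. With an adjusted p under 0.05, 0 of the 5 were called in the limma fit. Of all genes, 0.0156% were called in either direction (2 genes, both higher, and 0 lower). That share also stands beside each count of 0 called in the lists below, so such a count says little about a list. At an unadjusted limma p under 0.05 the 5 genes counted 1 higher and 1 lower, and all genes 2.07% higher and 1.42% lower. The median difference of the 5 was 0.03, and that of all genes 0.005.

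Mcl1 encodes MCL-1, a short-lived relative of BCL-XL that many immune cells need. Its log2 intensity (probe set 10494306) was 9.44, 9.40 and 9.53 without and 9.50, 9.47 and 9.48 with stimulation. All 6 arrays lay within a narrow range and the groups overlapped. The difference was 0.03 ± 0.15 (SE), with a 95% interval of -0.32 to 0.38 that corresponds to 0.803-fold to 1.30-fold (limma adjusted p = 0.99998). This interval does not reach the lower bound of the Bcl2l1 difference, 1.23. Within each array, the log2 ratio of Bcl2l1 to Mcl1, set against its unstimulated mean, was 0.14, -0.12 and -0.02 in unstimulated samples and 2.197, 1.38 and 1.72 in stimulated ones. The ratio was thus higher in every stimulated array, by 1.77 on average. As Mcl1 was nearly level, this restates the Bcl2l1 difference and is no separate result.

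Of the 9 anti-apoptotic family genes listed, 4 were tested, with 0 called and a median difference of 0.006. Beside Bcl2l1 and Mcl1 these were Bcl2l2, which encodes BCL-W, at -0.24 (95% interval -0.66 to 0.18), and Bcl2a1c at -0.02 (-0.52 to 0.48). Bcl2a1c belongs to a cluster of near-identical genes encoding A1, so its single probe set may read several copies. A further 3 probe sets carry several symbols, with a gene of this cluster among them, and were not named. Bcl2 was not analysed here.

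Bcl2l11 encodes BIM, the BH3-only protein that limits the life of many leukocytes. Its log2 intensity (probe set 10475866) was 5.73, 5.12 and 5.30 without and 5.41, 5.01 and 5.56 with stimulation. The lowest array of both groups was the one numbered 2, and stimulated arrays were higher in 4 of the 9 possible pairs and lower in 5. The difference was -0.05 ± 0.23 (SE, 95% interval -0.60 to 0.49, limma adjusted p = 0.99998). Its sign turned to 0.12 without unstimulated replicate 1, to 0.10 without stimulated replicate 2 and to 0.14 with array weights. The single probe set does not separate the splice forms of BIM.

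Pmaip1 encodes NOXA, a BH3-only protein that binds MCL-1 and promotes its breakdown. Its log2 intensity (probe set 10456357) was 7.45, 7.77 and 7.78 without and 6.96, 7.22 and 6.87 with stimulation. All 3 stimulated arrays lay below all 3 unstimulated ones, but the closest arrays were only 0.23 apart. The means were 7.66 ± 0.19 and 7.02 ± 0.18 (SD, n = 3 each), a difference of -0.65 ± 0.18 (SE, 95% interval -1.08 to -0.22) or 0.639-fold. The unadjusted limma p was 0.00912, rank 101 of 12780, and the adjusted p was 0.99998, so Pmaip1 did not pass. Unlike Bcl2l1, Mcl1 and Bcl2l11, Pmaip1 was higher in array 2 than in array 1 in both groups, by 0.33 in unstimulated and 0.25 in stimulated cells.

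The 10 BH3-only genes listed were all tested, with 0 called and a median difference of -0.06. Groups did not overlap for 1 of 10, which was Pmaip1, where 7.14% of all genes had such groups. The other genes apart from Bcl2l11 had differences from -0.25 to 0.14, and their unadjusted limma p was at least 0.253. Bbc3, which encodes PUMA and like Pmaip1 is a target of p53, differed by -0.07 (95% interval -0.47 to 0.33). Bmf, whose product is tethered to the cytoskeleton, differed by -0.25 (-0.72 to 0.22). Bid, which joins the death receptor route to the mitochondrial one, differed by 0.13, Bad by 0.14 and Bik by 0.05. Hrk differed by -0.15, and the mitophagy genes Bnip3 and Bnip3l by -0.10 and 0.002. Several of these genes were dim. Unstimulated means were 4.83 for Bbc3, 4.86 for Bik, 5.22 for Bid, 5.38 for Bcl2l11 and 5.45 for Bad. The medians of the unstimulated arrays were 5.63 to 5.78. Bnip3, Bmf, Hrk and Bnip3l were brighter, at 5.76 to 9.67. Whether dim genes stood above background was not analysed, so a difference near 0 in them is weak evidence of no change.

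Among the effectors and other multidomain members, 5 of 7 genes were tested, with 0 called and a median difference of 0.009. Bak1, which encodes the pore-forming effector BAK, differed by 0.10 (95% interval -0.30 to 0.51), and Bok, a related effector, by -0.02. Bcl2l12, Bcl2l13 and Bcl2l14 differed by -0.05, 0.04 and 0.009. Bok and Bcl2l13 were dim, with unstimulated means of 5.39 and 4.85, so the limit given for dim BH3-only genes holds for them too. Bax was not analysed here. Across the 19 genes of the 3 family lists, groups did not overlap for 2, Bcl2l1 and Pmaip1, where all genes had 7.14%. The 17 left after taking out those 2 overlap by that choice, and their differences ran from -0.25 to 0.14.

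**Figure D2:**
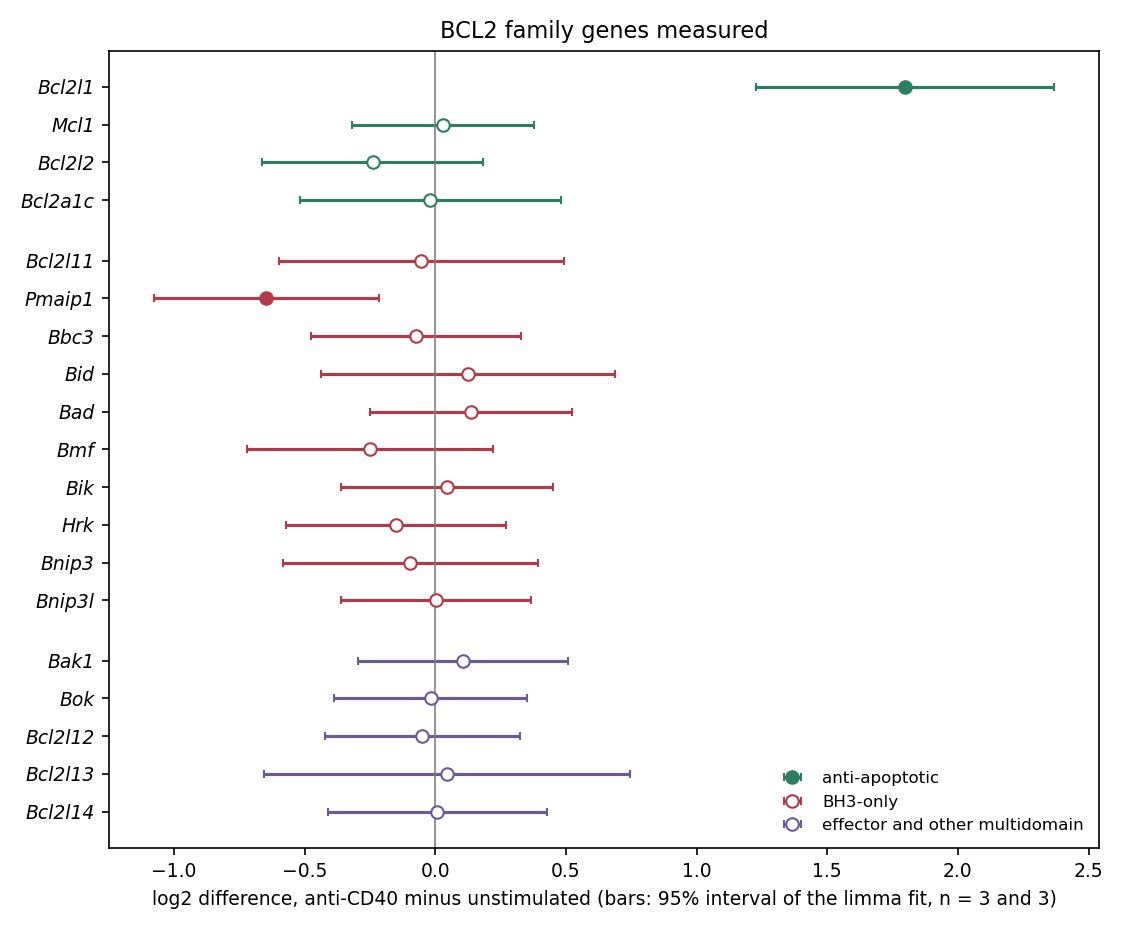
Log2 difference between stimulated and unstimulated cells (horizontal axis) for the 19 measured BCL2 family genes, with 95% intervals of the limma fit as bars; filled points mark genes whose groups did not overlap. Bcl2l1 lies at 1.80 and Pmaip1 at -0.65, and the intervals of the other 17 genes hold 0.

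Cflar encodes c-FLIP, the inhibitor of caspase-8 at death receptors. By the probe set with the highest mean (10346562), its log2 intensity was 10.03, 10.13 and 10.37 without and 10.40, 10.21 and 10.56 with stimulation. Stimulated arrays were higher in 8 of 9 pairs, yet the groups overlapped. The difference was 0.21 ± 0.18 (SE, 95% interval -0.21 to 0.63, limma adjusted p = 0.99998).

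The other probe sets of Cflar varied far more between arrays of 1 group. Probe set 10346551 read 7.65, 6.01 and 7.06 without and 7.92, 6.62 and 6.85 with stimulation. Probe set 10497931 read 8.05, 6.56 and 7.41 without and 8.19, 7.44 and 6.82 with stimulation. In both, array 1 was the highest of its group, by 1.64 and 1.49 over array 2 in unstimulated cells, where the brightest probe set had array 1 below array 2 by 0.10. Their SD in unstimulated cells was 0.83 and 0.75, against 0.17 for the brightest. The differences between groups were similar in size, 0.22 ± 0.49 and 0.14 ± 0.46 (SE), and all 3 probe sets had overlapping groups. The platform annotation lists 4 transcript records for the brightest probe set, and those 4 are shared by all 3 probe sets. Probe set 10346551 lists 9 records, 1 of them found only there, and 10497931 lists 10, 2 of them found only there. Whether the probe sets read the same RNA was not tested.

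**Figure D3:**
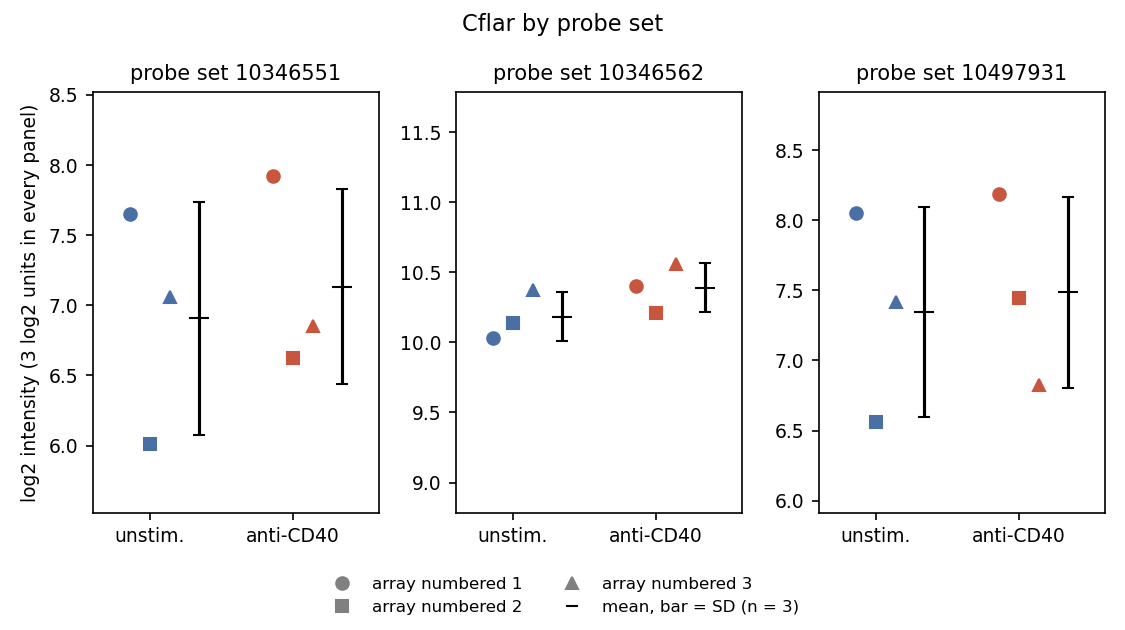
Log2 intensity (vertical axis, 3 log2 units in every panel) of the 3 probe sets of Cflar; each point is 1 array, its shape the replicate number, and the black mark the mean with SD (n = 3). In the left and right panels the array numbered 1 is highest in both groups, and in every panel the groups overlap.

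Upstream of c-FLIP, 5 of 7 death receptor genes were tested, with 0 called and a median difference of 0.16. Fas, the best known death receptor, was at 8.03, 6.58 and 7.01 without and 8.40, 8.32 and 7.88 with stimulation. Only unstimulated sample 1 reached into the stimulated range. The difference was 0.99 ± 0.37 (SE, 95% interval 0.12 to 1.87, limma adjusted p = 0.99998), and it ran from 0.68 to 1.41 when 1 array was left out. Tnfrsf1a, a receptor of TNF, differed by 0.34 (95% interval -0.47 to 1.16). Of the death ligands 3 of 6 were tested, with a median of 0.14 and 0 called, among them Tnf at 0.14 and Tnfsf15 at 0.19.

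In the receptor complex and necroptosis list, 18 of 22 genes were tested, with 0 called and a median of 0.02. Groups did not overlap for 1 of 18 (5.56%), where all genes had 7.14%. That gene was Fadd, the adaptor that brings caspase-8 to death receptors. It was at 6.35, 6.44 and 6.43 without and 7.02, 6.64 and 7.33 with stimulation. Each stimulated array lay above the 3 closely spaced unstimulated ones. The difference was 0.59 ± 0.21 (SE, 95% interval 0.10 to 1.08, limma adjusted p = 0.99998). Casp8 itself differed by -0.16 and the deubiquitinase gene Tnfaip3 by 0.69 with an SE of 0.54, both named after their values were seen.

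Downstream, 9 of 12 genes of the IAP list were tested, with a median of -0.13, and 10 of 14 of the caspase and apoptosome list, with a median of 0.03. In both, 0 genes were called, where 0.0156% of all genes were. Groups overlapped for every gene tested, where 7.14% of all genes had groups that did not overlap. With so few genes in a list, such counts of 0 say little about it. Birc3, which encodes the NF-kB induced inhibitor cIAP2, differed by -0.02 (95% interval -0.59 to 0.55), and Htra2, an IAP antagonist of mitochondria, by 0.51 (-0.48 to 1.499). Cycs, which encodes cytochrome c, differed by -0.20 and the inflammatory caspase gene Casp4 by 0.19. Casp1, the inflammasome caspase, was named after its values were seen, because it had the smallest p of its list. It was at 6.98, 7.79 and 7.68 without and 6.35, 7.01 and 6.71 with stimulation, a difference of -0.79 ± 0.28 (SE, limma adjusted p = 0.99998). Stimulated sample 2 lay just above unstimulated sample 1.

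Among 25 of 28 tested regulators of the BCL2 family, the median difference was 0.10, with 0 called. Groups did not overlap for 1 of 25, where all genes had 7.14%. This was Bag3, a co-chaperone that stabilises BCL2 family proteins, at 5.68, 6.13 and 5.95 without and 6.92, 6.29 and 6.86 with stimulation. Stimulated sample 2 lay only slightly above unstimulated sample 2. Its difference was 0.77 ± 0.23 (SE, 95% interval 0.23 to 1.31, limma adjusted p = 0.99998). Foxo3, which encodes a factor that activates the Bcl2l11 gene in many cells, differed by -0.09, and the related Foxo1 by 0.02. Foxo3 and Foxo1 were named after their values were seen.

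The list of NF-kB induced genes and of the CD40 pathway holds genes that the same receptor is known to act on, and 16 of 18 were tested. Their median difference was 0.48, with 0 called, 12 positive and 4 negative, where all genes had 6522 positive and 6258 negative. Groups did not overlap for 2 of 16 (12.5%), where all genes had 7.14%. These were Cd40 at 1.01 ± 0.32 (SE, 95% interval 0.26 to 1.76) and Sod2, the mitochondrial superoxide dismutase gene, at 0.63 ± 0.25 (SE, 0.04 to 1.21). The list was chosen with earlier results of these data known, so nothing is read from the 12.5% or from the count of signs. The largest difference of the list was in the other direction. It was that of Map3k14, which encodes the kinase NIK of the non-canonical NF-kB route, named after its values were seen. This gene was at 10.502, 8.88 and 9.23 without and 9.09, 7.82 and 8.63 with stimulation, a difference of -1.03 ± 0.48 (SE, 95% interval -2.16 to 0.10, limma adjusted p = 0.99998), and its groups overlapped. Leaving out unstimulated replicate 2 lowered that median to 0.07, and leaving out unstimulated replicate 1 raised it to 0.89. Some members differed more between arrays numbered 1 and 2 of the same group than between groups. An example, named after its values were seen, is Relb. Its array differences were 2.37 in unstimulated and 2.03 in stimulated cells, against a group difference of 0.19. For Bcl2l1 the same array differences were 0.31 and 0.85, against a group difference of 1.80.

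**Figure D4:**
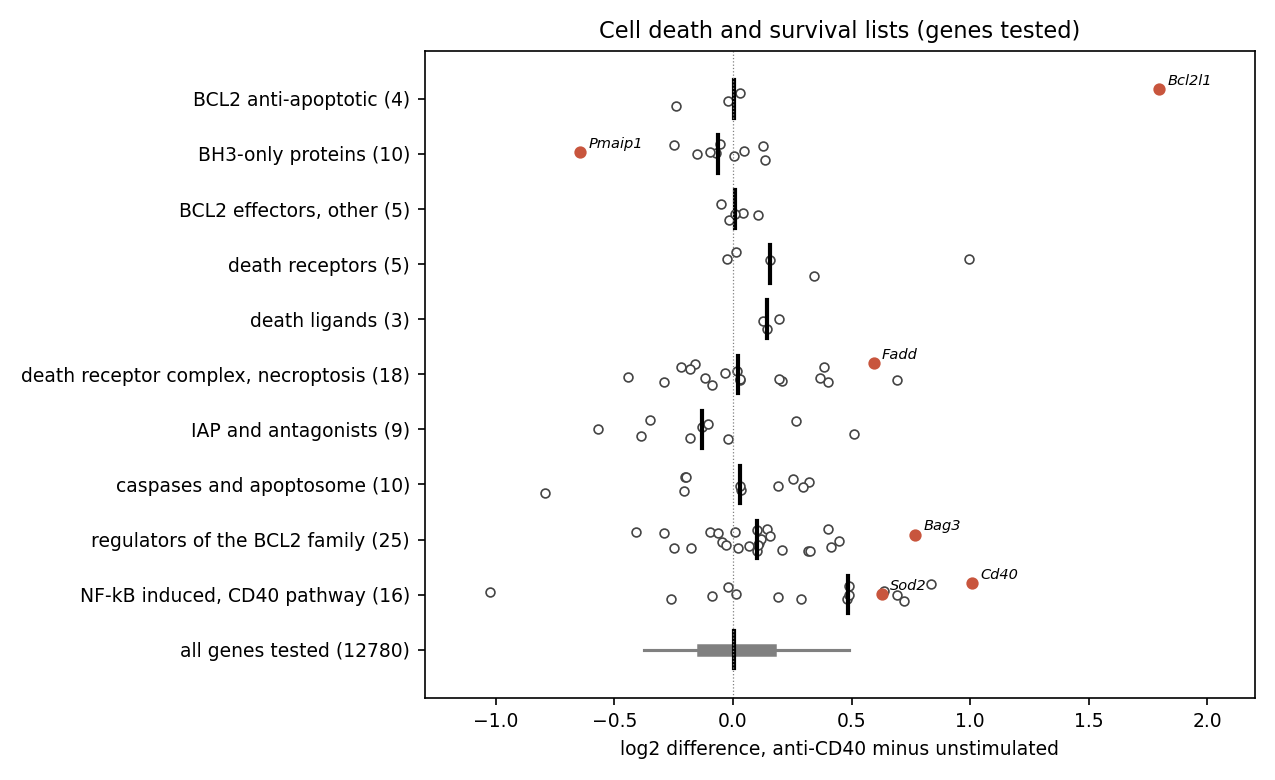
Log2 difference between stimulated and unstimulated cells (horizontal axis) for every tested gene of the 10 lists, with filled and named points for genes whose groups did not overlap, black bars for list medians, and, for all 12780 genes, a thick bar from the 25th to the 75th and a thin one from the 5th to the 95th percentile. Bcl2l1 is the farthest point to the right, and 6 of the 102 genes have groups that did not overlap.

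Over the 102 tested genes of the 10 lists, 0 were called, where 0.0156% of all genes were. Groups did not overlap for 6 (5.88%), where all genes had 7.14%. An unadjusted limma p under 0.05 was found for 9 (8.82%), where all genes had 3.49%. As the lists were chosen with earlier results of these data known, nothing is read from these shares. The median difference of the 102 genes was 0.03.

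Genes whose pattern over the 6 arrays was most like that of a member were ranked by Pearson's r among genes with an SD of at least 0.3. With so few arrays such r values are high by selection. Closest to Bcl2l1 were Csrp2, which encodes a LIM domain protein (r = 0.993), Csf1, the macrophage growth factor gene (0.989), and Dusp14, a phosphatase gene (0.987), with differences of 1.64, 1.67 and 1.31. Closest to Pmaip1 were Dph6 (0.984), D2hgdh (0.971) and Plpp1 (0.965), with differences of -0.75, -0.45 and -0.98. Zfp335 (0.990), Man2c1 (0.986) and Taldo1 (0.984) were closest to Bcl2l11. Naa50 (0.986), Dbt (0.962) and Cyb5b (0.935) were closest to Mcl1, and Pitpnc1 (0.958), Carhsp1 (0.951) and Crb3 (0.938) to Cflar.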

How the data were processed

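RNA of 6 samples was measured on 1-colour Affymetrix arrays. The authors processed them with RMA in Affymetrix Expression Console, per the submitters' processing notes. The version and any filters are not stated there. Deposited were intensities of 17551 probe sets from 6.97 to 13701, a linear scale, so log2 was taken. In every probe set the higher group geometric mean was at least 20.001, so dim genes are under-represented, and genes outside the table were not analysed here.

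Of the probe sets, 13963 had 1 symbol in the platform annotation, 970 several and 2618 none. The brightest probe set of each of 677 genes with several was used, which left 12780 genes. The test of stimulated against unstimulated samples was that of limma 3.58.1 (R 4.3.3; lmFit, then eBayes; two-sided; Benjamini-Hochberg over 12780 genes); SEs and 95% intervals come from that fit. The procedure was tested on simulated data with independent noise in each array, so that test does not cover the array effects described here. The members, the 10 lists (130 genes, 102 tested) and the rule for named genes were chosen with earlier results of these data known. The rule takes all measured BCL2 family genes. From other lists it takes genes called, or with groups that do not overlap and a difference of at least 0.5, or else the 2 brightest. It adds 3 genes of like pattern for each member. The alternatives were other variance models, filters, normalisations, weights, a replicate block, array omissions, probe set rules, thresholds, a pseudocount of 16 and, added after seeing the data, an array spread covariate. Figures were drawn with matplotlib 3.10.9.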

Additional observations from a re-analysis of the deposited data

How the results depend on the processing

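Pmaip1 and Cflar kept their direction and stayed short of the threshold in all 16 alternatives, with differences of -0.81 to -0.57 and 0.12 to 0.31. Bcl2l1 kept its direction in all 16 (1.57 to 1.997) and passed in 4: quantile normalisation once more (1.72), array weights (1.74), the within-array interquartile range as a covariate (1.70, an alternative chosen after the data were seen), and the replicate block (1.80, limma adjusted p = 0.00812). Its limma adjusted p over the alternatives ran from 0.00812 to 0.99999. Mcl1 turned to -0.014 after quantile normalisation once more, to -0.011 after centring on array medians and to -0.027 with array weights. Bcl2l11 turned to 0.14 with array weights, and when 1 array was left out it ran from -0.19 to 0.12. The cause was not tested for any of these. The array weights were 6.14 for unstimulated sample 3 and 2.196 for stimulated sample 3, against 0.48 to 0.59 for the other arrays. The pass, sign changes and counts of called genes given for the fit with array weights therefore rest largely on the arrays numbered 3.

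Counts of called genes, 2 higher and 0 lower, became 5 and 1 after quantile normalisation once more, 28 and 18 with array weights, 11 and 4 with that covariate, and 30 and 8 with the replicate block. After centring 3 genes were higher and 1 lower. With the pseudocount 1 was higher, at an adjusted p under 0.01 it was 0, and leaving out any 1 array, which fits fewer samples, gave 0 in both directions. The medians of the 10 lists moved by less than the pooled SD, within groups, of the median log2 intensity of the list in each array. The medians of 5 lists near 0 changed sign under at least 1 alternative: the 3 BCL2 family lists, the receptor complex list and the caspase list.

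Deviations of same-numbered samples from their group means correlated at 0.73, 0.59 and 0.06, and unstimulated sample 3 was closer to stimulated sample 2 (0.19). The labels do not say that a number marks a shared batch, so the result of the block is given here only. Signal over background was not analysed here, and small differences such as that of Mcl1 are known only within their intervals.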
